A study of Mus musculus with 12 samples.

Results

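The Hox genes encode the homeodomain transcription factors that set position along the body, and the 39 genes of the 4 mouse Hox clusters were examined here. They were chosen as the genes whose symbol, matched from the Entrez identifier, names cluster a, b, c or d and a paralog number. They are 39 of the 24100 genes counted. RNA was sequenced from mouse embryonic fibroblasts (MEFs) of 2 lines, each isolated from a different mother, with 3 libraries for each line and genotype. WT MEFs were Rtf2+/+ + Cre and RTF2-deficient MEFs were Rtf2-/lox + Cre, RTF2 being a replisome protein that the study follows in DNA replication. According to the methods, MEFs of all 4 groups had been immortalized with SV40-LT and received a Hit & Run pMMP Cre retrovirus, and RNA was taken 72 hrs later. The libraries are technical replicates, whether they shared a dish is not stated, and p-values measure the spread among the 3 libraries of a group. WT and Rtf2-/lox MEFs came from littermate embryos, and embryo and genotype cannot be told apart within a line, nor can line, litter and embryo between lines. Library totals lay between 39360167 and 44695002 counts. The 2 libraries of each pair within a group differed by more than sampling noise, and all 12 were kept as separate libraries.

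Rtf2 itself measured 44.9, 44.8 and 47.2 CPM in WT line 1, 5.64, 5.45 and 6.29 in RTF2-deficient line 1, 57.8, 52.9 and 50.9 in WT line 2, and 6.66, 6.49 and 6.33 in RTF2-deficient line 2, where CPM are counts scaled to the TMM-normalized library size. Every RTF2-deficient library lay far below every WT library. WT line 2 also differed from the other groups in a Y-linked gene, Ddx3y, named after its values were seen. It measured 104, 91.8 and 107 CPM in WT line 2 and at most 0.195 CPM in any library of the other 3 groups. Xist, the RNA of the silenced X chromosome, measured at most 0.132 CPM in WT line 2 and 103 to 173 CPM in the other 9 libraries. The embryo of WT line 2 may therefore differ in sex from those of the other 3 groups, which cannot be told apart from genotype within line 2 or from line between the WT groups. The part of this in the Hox values was not tested.

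Hox genes of low paralog number pattern the hindbrain and neck, those of middle number the trunk, and those of high number the lumbar region, tail, genitals and limbs. Within a cluster the genes lie in the order of their paralog numbers, which is also the order in which they are switched on in the embryo. Fibroblasts are known to keep in culture much of the Hox pattern of the place they came from. In the GRCm38 build the Hoxa cluster holds 11 genes on chromosome 6 (52155367 to 52260880), the Hoxb cluster 10 on chromosome 11 (96194316 to 96368254), the Hoxc cluster 9 on chromosome 15 (102921131 to 103036856) and the Hoxd cluster 9 on chromosome 2 (74668225 to 74765142).

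The groups differed in which clusters, and which ends of them, held most of the Hox RNA. Summed over the 39 genes, the level was 268 ± 33.7 CPM (SD, n = 3) in WT line 1, 238 ± 54.8 in RTF2-deficient line 1, 372 ± 29.3 in WT line 2 and 307 ± 11.4 in RTF2-deficient line 2. In line 1 the Hoxb genes took most of this sum, 59.8% ± 0.729 (SD, n = 3) in WT and 64.2% ± 0.625 in RTF2-deficient MEFs. In WT line 2 the Hoxd genes took the largest share, 47.8% ± 3.78. RTF2-deficient line 2 divided the sum more evenly, with 29.6% ± 0.271 for Hoxa, 29.4% ± 2.42 for Hoxb, 13.3% ± 1.09 for Hoxc and 27.6% ± 3.34 for Hoxd. In bulk RNA, fewer cells expressing a gene and less RNA per cell cannot be told apart.

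**Figure D1:**
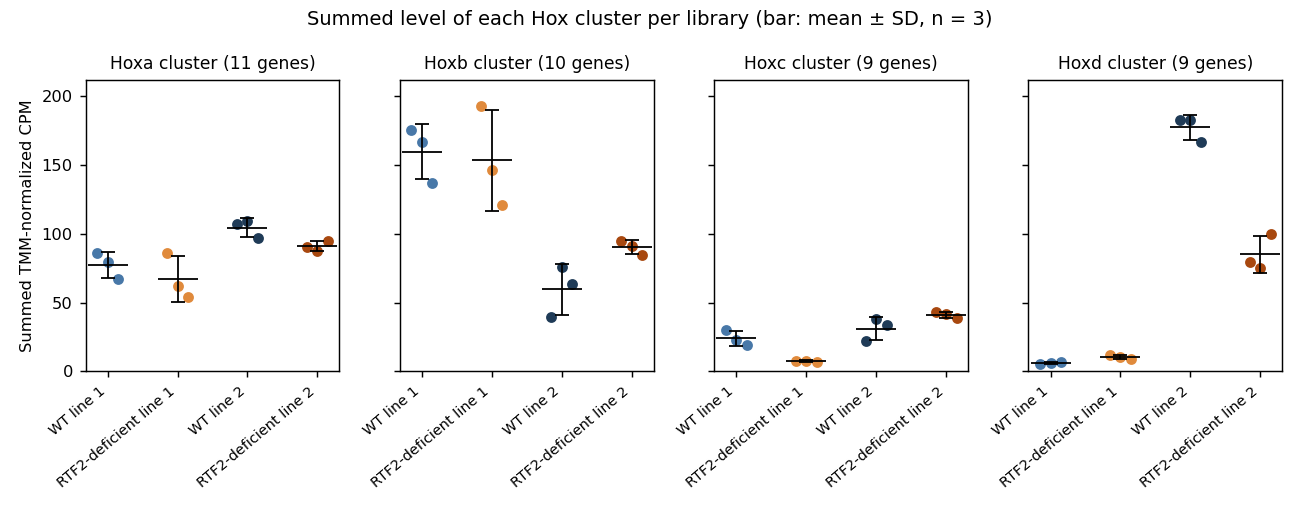
Summed TMM-normalized CPM of the genes of each Hox cluster (vertical axis, from 0) in each library of the 4 groups (horizontal axis); points are libraries and bars give the mean ± SD, n = 3. The Hoxd sums of WT line 2 lie between 167 and 182.8 CPM, and those of both line 1 groups between 5.45 and 11.8 CPM.

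Summed Hoxd levels were 5.45, 6.42 and 7.07 CPM in WT line 1, 11.8, 10.3 and 8.88 in RTF2-deficient line 1, 183, 183 and 167 in WT line 2, and 79.8, 75.03 and 100.1 in RTF2-deficient line 2. The 4 groups did not overlap, with WT line 2 highest and WT line 1 lowest. Summed Hoxb levels were 175, 167 and 137 CPM in WT line 1, 193, 146 and 121 in RTF2-deficient line 1, 39.3, 75.8 and 63.8 in WT line 2, and 94.7, 91.3 and 84.8 in RTF2-deficient line 2. All libraries of line 1 lay above all libraries of line 2, and the genotypes overlapped within line 1 but not within line 2. Summed Hoxc levels were 29.8, 22.6 and 19.4 CPM in WT line 1, 7.59, 7.9 and 6.75 in RTF2-deficient line 1, 21.7, 37.9 and 33.4 in WT line 2, and 42.8, 41.5 and 38.5 in RTF2-deficient line 2. RTF2-deficient line 1 lay below the other 3 groups, and the 2 genotypes of line 2 did not overlap, with RTF2-deficient libraries higher. WT line 2 replicate 1 was the lowest of its group in both the Hoxb and the Hoxc sum. Summed Hoxa levels were 85.7, 79.6 and 66.8 CPM in WT line 1, 85.9, 62.3 and 53.8 in RTF2-deficient line 1, 107, 109.6 and 96.6 in WT line 2, and 90.1, 87.8 and 94.98 in RTF2-deficient line 2. The 2 genotypes of line 1 overlapped, whereas every WT line 2 library lay above every RTF2-deficient line 2 library.

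Genes of paralog numbers 9 to 13 made up 26.7% ± 1.56 of the Hox sum in WT line 1, 29.7% ± 2.12 in RTF2-deficient line 1, 75.5% ± 4.5 in WT line 2 and 55.2% ± 2.56 in RTF2-deficient line 2. In line 1 most of that share was Hoxb9, and the 9 Hoxa and Hoxd genes of these numbers together held 1.65% ± 0.693 in WT and 5.5% ± 0.654 in RTF2-deficient MEFs. In line 2 they held 66.5% ± 6.96 and 41.1% ± 4.44. Paralog number 13 alone, the group of the digits, genitals and tail end, reached 143 ± 5.92 CPM in WT line 2 and 65.2 ± 12.4 CPM in RTF2-deficient line 2, against 0.954 ± 0.401 and 6.03 ± 1.93 CPM in the same genotypes of line 1. Paralog number 3, active from the hindbrain to the neck, ran the other way, with 46.98 ± 6.78 and 44.7 ± 8.29 CPM in line 1 and 12.5 ± 2.66 and 24.3 ± 1.64 CPM in line 2. Counting as detected a gene with at least 1 CPM in all 3 libraries, 19 Hox genes were detected in WT line 1, 21 in RTF2-deficient line 1, 28 in WT line 2 and 30 in RTF2-deficient line 2. This difference between the lines depends on that level, since at least 3 counts in each library were present for 33, 33, 33 and 36 genes in the same order of groups.

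**Figure D2:**
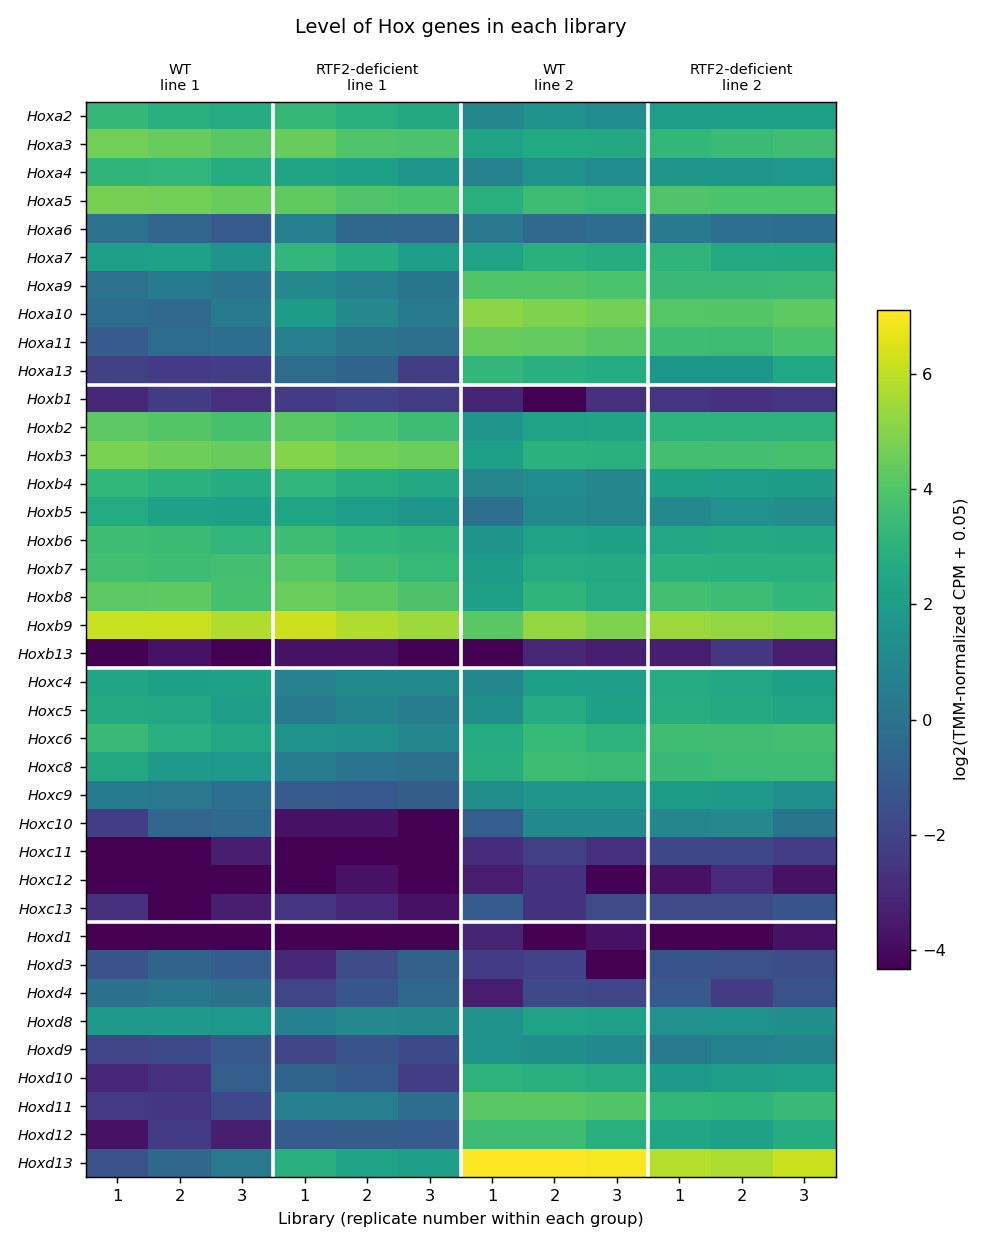
Level of Hox genes (rows, by cluster and paralog number) in each of the 12 libraries (columns, by group), as log2 of TMM-normalized CPM plus 0.05 in colour. Hoxb9 is bright in every library, at 17.9 to 76.03 CPM. Hoxa9 to Hoxa13 and Hoxd9 to Hoxd13 are brighter in line 2 than in line 1, and Hoxd13 lies between 52.4 and 138 CPM in line 2.

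Compared per length of transcript, Hoxb9 was the most abundant Hox gene of line 1, with 25.4 ± 3.77 CPM per kb (SD, n = 3) in WT and 22.4 ± 6.56 in RTF2-deficient MEFs, and Hoxd13 was that of line 2, with 54.5 ± 1.88 and 24.5 ± 4.47. Next came Hoxa5 in WT line 1 (13.2 ± 1.43 CPM per kb), Hoxb7 in RTF2-deficient line 1 (10.3 ± 2.97), Hoxd11 in WT line 2 (15.9 ± 1.12) and Hoxb9 in RTF2-deficient line 2 (14.6 ± 1.5). In none of the 4 groups did the libraries of the first and the next gene overlap on this scale. Within Hoxa the gene of highest level per length was Hoxa5 in 3 groups and Hoxa10 in WT line 2, at 11.8 ± 1.56 CPM per kb. In RTF2-deficient line 1 the range of Hoxa5, at 8.83 ± 1.69, overlapped that of Hoxa3, at 6.72 ± 1.53. Hoxa5 was nonetheless the higher of these genes in each library of that group. Within Hoxc it was Hoxc6 in each group, at 5.01 ± 1.55, 1.55 ± 0.289, 5.27 ± 1.11 and 7.88 ± 0.353 CPM per kb in the order of the groups above, and in WT line 2 its libraries overlapped those of Hoxc8. Within Hoxd it was Hoxd8 in WT line 1, at 1.29 ± 0.0278 CPM per kb, and Hoxd13 in the other 3 groups, at 2.19 ± 0.643 CPM per kb in RTF2-deficient line 1.

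The 2 WT groups were compared to see how far the lines differ in Hox genes before genotype enters. Line 2 was lower in the front of Hoxa and in Hoxb and higher in the rear of Hoxa and Hoxd. Of the 39 Hox genes, 34 passed the filter on low counts and were tested, and a call needed an adjusted p under 0.05 over all genes tested and a log2 fold change beyond 1. In WT, 14 Hox genes were lower in line 2 and 11 were higher. Over all 14263 genes tested, 2.87% were called lower and 3.89% higher. The median absolute log2 fold change was 1.83 over the tested Hox genes and 0.18 over all genes tested. Among those called lower were Hoxa2 to Hoxa5, Hoxb2 to Hoxb9 and Hoxd4, and called higher were Hoxa9 to Hoxa13, Hoxc8, Hoxc9 and Hoxd9 to Hoxd13. No called gene had libraries of the 2 groups that overlapped. The calls were made from these same libraries, so this adds no support to them. Of all genes tested, 30.2% had groups that did not overlap, counting both directions, where chance gives 10%.

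**Figure D3:**
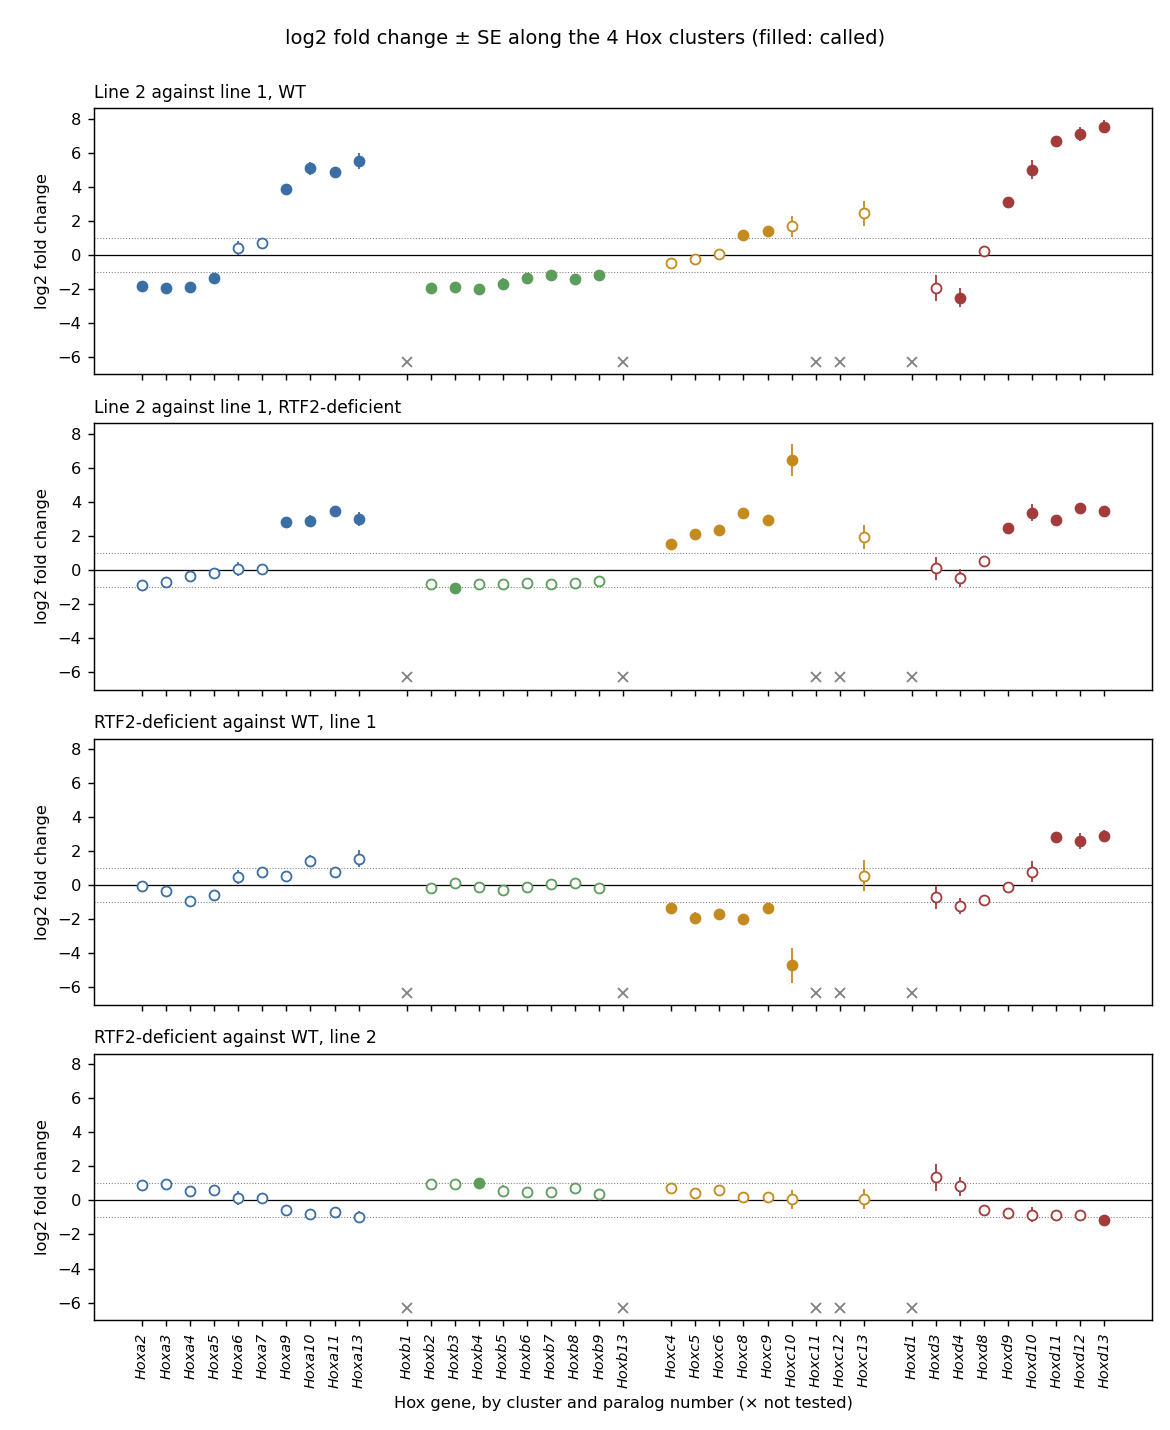
log2 fold change ± SE (vertical axis) of Hox genes by cluster and paralog number (horizontal axis) in 4 comparisons, from top to bottom line 2 against line 1 in WT and in RTF2-deficient MEFs, and RTF2-deficient against WT in line 1 and in line 2; filled points were called, open points were not, dotted lines mark 1 and -1, and crosses mark genes not tested. In WT the values climb from -2.50 at Hoxd4 to 7.53 at Hoxd13 along Hoxd, and the fitted values of Hoxc10 rest on 2 counts in RTF2-deficient line 1.

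Hoxd13, Hoxd12 and Hoxd11, at the rear of Hoxd, had the largest log2 fold changes of the tested Hox genes in this comparison. Hoxd13, needed for digits, measured 0.334, 0.669 and 1.18 CPM in WT line 1, 7.21, 4.98 and 4.12 in RTF2-deficient line 1, 138, 138 and 129.8 in WT line 2, and 56.7, 52.4 and 73.3 in RTF2-deficient line 2. Hoxd12, its neighbour and also a digit gene, measured 0.0239, 0.149 and 0.0483 CPM in WT line 1, 0.454, 0.466 and 0.439 in RTF2-deficient line 1, 11.9, 11.6 and 7.46 in WT line 2, and 5.41, 4.62 and 6.8 in RTF2-deficient line 2. Hoxd11, which shapes the forearm with Hoxa11, measured 0.143, 0.124 and 0.241 CPM in WT line 1, 1.46, 1.45 and 0.805 in RTF2-deficient line 1, 18.4, 18.4 and 16.2 in WT line 2, and 9.41, 8.98 and 10.5 in RTF2-deficient line 2. In these 3 genes both groups of line 2 lay above all of line 1, WT line 2 above RTF2-deficient line 2, and RTF2-deficient line 1 above WT line 1, with no overlap. Hoxd10, which acts in the lumbar cord and hindlimb, measured 0.0717, 0.0991 and 0.507 CPM in WT line 1, 0.597, 0.417 and 0.171 in RTF2-deficient line 1, 8.45, 7.14 and 6.52 in WT line 2, and 3.56, 4.16 and 4.66 in RTF2-deficient line 2. Hoxd9, which acts in the upper limb, measured 0.215, 0.248 and 0.41 CPM in WT line 1, 0.215, 0.343 and 0.244 in RTF2-deficient line 1, 2.85, 2.51 and 2.15 in WT line 2, and 1.3, 1.59 and 1.67 in RTF2-deficient line 2. For these 2 genes the order within line 2 was the same and the genotypes of line 1 overlapped. The log2 fold changes of line 2 against line 1 in WT were 7.53 ± 0.37 (SE) for Hoxd13, 7.09 ± 0.40 for Hoxd12, 6.68 ± 0.28 for Hoxd11, 5.01 ± 0.56 for Hoxd10 and 3.09 ± 0.28 for Hoxd9, so they fell off from the rear of the cluster to its middle. The adjusted p-values from edgeR lay between 2.91e-07 (Hoxd11) and 0.000193 (Hoxd10), with all 3 libraries of line 2 higher in each gene. Without WT line 1 replicate 3 the log2 fold change of Hoxd10 was 6.38, and without WT line 1 replicate 2 that of Hoxd12 was 8.03.

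The rear of Hoxa followed the same order of groups. Hoxa13, which acts with Hoxd13 in digits, measured 0.191, 0.149 and 0.169 CPM in WT line 1, 0.764, 0.589 and 0.171 in RTF2-deficient line 1, 9.49, 7.61 and 6.61 in WT line 2, and 3.25, 3.31 and 5.56 in RTF2-deficient line 2. Hoxa11, a forearm and lower leg gene, measured 0.43, 0.768 and 0.82 CPM in WT line 1, 1.53, 1.01 and 0.878 in RTF2-deficient line 1, 22.1, 20.6 and 17.4 in WT line 2, and 11.9, 11.6 and 13.9 in RTF2-deficient line 2. Hoxa10, which acts in the thigh, lumbar spine and uterus, measured 0.764, 0.694 and 1.21 CPM in WT line 1, 3.8, 2.06 and 1.24 in RTF2-deficient line 1, 34.4, 30.1 and 26.4 in WT line 2, and 17.1, 16.4 and 19.6 in RTF2-deficient line 2. Hoxa9, a gene of the upper limb and of blood progenitors, measured 0.931, 1.24 and 0.965 CPM in WT line 1, 2.05, 1.5 and 1.02 in RTF2-deficient line 1, 15.9, 16.1 and 14.5 in WT line 2, and 10.4, 10.4 and 11.1 in RTF2-deficient line 2. WT line 2 was highest and RTF2-deficient line 2 next in each of these 4 genes, with no overlap between these groups or with line 1. The log2 fold changes in WT were 5.52 ± 0.47 for Hoxa13, 4.89 ± 0.26 for Hoxa11, 5.09 ± 0.37 for Hoxa10 and 3.89 ± 0.22 for Hoxa9 (SE), with adjusted p-values between 1.1e-06 and 3.41e-05.

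The front of Hoxa was lower in line 2. Hoxa2, which patterns the hindbrain and the branchial arches, measured 9.74, 7.46 and 6.51 CPM in WT line 1, 9.86, 7.26 and 5.97 in RTF2-deficient line 1, 1.91, 2.67 and 2.24 in WT line 2, and 4.02, 4.31 and 4.5 in RTF2-deficient line 2. Hoxa3, needed for thymus and parathyroid, measured 25.8, 21.9 and 18.1 CPM in WT line 1, 21.97, 15.6 and 14.7 in RTF2-deficient line 1, 4.73, 6.37 and 5.95 in WT line 2, and 9.57, 11.1 and 11.98 in RTF2-deficient line 2. In WT the 2 lines overlapped in neither gene, and line 1 was higher. Hoxa4, a neck gene, measured 9, 9.04 and 6.75 CPM in WT line 1, 4.99, 4.49 and 3.32 in RTF2-deficient line 1, 1.61, 2.84 and 2.34 in WT line 2, and 3.25, 3.29 and 3.35 in RTF2-deficient line 2. Hoxa5, which acts in the lung and at the base of the neck, measured 26.8, 25.8 and 21.7 CPM in WT line 1, 20.2, 15.3 and 14.2 in RTF2-deficient line 1, 7.41, 11.5 and 10.04 in WT line 2, and 15.6, 14.7 and 14.7 in RTF2-deficient line 2. WT line 2 was the lowest group in both and overlapped no other group in either gene. The log2 fold changes of these 4 genes in WT lay between -1.95 (Hoxa3) and -1.36 (Hoxa5), with adjusted p-values between 7.83e-05 and 0.000383.

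All 8 tested Hoxb genes were called lower in WT line 2. Hoxb2, a hindbrain gene, measured 18.6, 16.3 and 13.7 CPM in WT line 1, 18.1, 14.7 and 11.5 in RTF2-deficient line 1, 3.06, 4.83 and 5.05 in WT line 2, and 8.3, 8.39 and 8.23 in RTF2-deficient line 2. Hoxb3, another hindbrain gene, measured 27.9, 23.7 and 22.1 CPM in WT line 1, 32.1, 25.5 and 23.4 in RTF2-deficient line 1, 4.54, 7.78 and 7.65 in WT line 2, and 12.7, 13.04 and 13.6 in RTF2-deficient line 2. Hoxb4, which acts in neck vertebrae and blood stem cells, measured 9.39, 7.93 and 6.68 CPM in WT line 1, 9.1, 6.87 and 5.92 in RTF2-deficient line 1, 1.8, 2.31 and 1.94 in WT line 2, and 4.47, 4.08 and 3.87 in RTF2-deficient line 2. WT line 2 lay below each other group in these 3 genes, and both groups of line 1 lay above both of line 2. Hoxb5, which helps to place the shoulder girdle, measured 6.45, 4.63 and 4.32 CPM in WT line 1, 5.21, 4.14 and 3.19 in RTF2-deficient line 1, 0.847, 2.18 and 1.79 in WT line 2, and 2.04, 2.67 and 2.44 in RTF2-deficient line 2. Hoxb6, a trunk gene, measured 11.8, 10.97 and 9.17 CPM in WT line 1, 11.8, 9.35 and 8.7 in RTF2-deficient line 1, 2.95, 4.85 and 4.49 in WT line 2, and 5.49, 6.24 and 5.83 in RTF2-deficient line 2. Hoxb7, a gene of the ribs, measured 12.7, 11.6 and 13 CPM in WT line 1, 17.6, 12.2 and 10.1 in RTF2-deficient line 1, 3.78, 6.57 and 6.33 in WT line 2, and 7.84, 7.52 and 7.66 in RTF2-deficient line 2. The lines did not overlap in either genotype, and the genotypes of line 1 overlapped in each of these 3 genes. Hoxb8, a gene of the trunk and spinal cord, measured 18.5, 19.6 and 13.8 CPM in WT line 1, 22.5, 19.1 and 15.04 in RTF2-deficient line 1, 4.39, 8.91 and 6.5 in WT line 2, and 12.3, 11.3 and 9.43 in RTF2-deficient line 2. Hoxb9, which acts on the rib-bearing part of the spine, measured 70.0, 72.1 and 54.4 CPM in WT line 1, 76.03, 54.3 and 42.8 in RTF2-deficient line 1, 17.9, 38.3 and 29.9 in WT line 2, and 41.4, 37.9 and 33.7 in RTF2-deficient line 2. Line 1 was higher in both, and within line 2 the genotypes overlapped for Hoxb9 and not for Hoxb8. The log2 fold changes in WT ran from -1.99 (Hoxb4) to -1.16 (Hoxb7), with adjusted p-values between 7.66e-05 and 0.0125. WT line 2 replicate 1 was the lowest library in each of the 8 genes, and without it the log2 fold changes of Hoxb7 and Hoxb9 were -0.96 and -0.95, short of the call.

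The Hoxc genes separated the groups in another way. Hoxc4, a neck and upper trunk gene, measured 5.33, 4.41 and 4.61 CPM in WT line 1, 1.62, 2.08 and 2.07 in RTF2-deficient line 1, 2, 4.28 and 4.13 in WT line 2, and 6.81, 5.77 and 4.5 in RTF2-deficient line 2. Hoxc5, its neighbour, measured 6.38, 5.6 and 4.03 CPM in WT line 1, 1.24, 1.67 and 1.39 in RTF2-deficient line 1, 2.56, 6.57 and 4.49 in WT line 2, and 7, 6.21 and 5.2 in RTF2-deficient line 2. Hoxc6, a gene of the chest region, measured 10.6, 7.43 and 5.74 CPM in WT line 1, 2.77, 2.65 and 1.93 in RTF2-deficient line 1, 6.6, 10.1 and 8.29 in WT line 2, and 12.3, 12.01 and 13.1 in RTF2-deficient line 2. RTF2-deficient line 1 lay below WT line 1 and RTF2-deficient line 2 in these genes, and below WT line 2 except for Hoxc4, where those groups overlapped. Hoxc8, which acts in the ribs and the motor neurons of the forelimb, measured 5.95, 3.44 and 3.33 CPM in WT line 1, 1.39, 0.981 and 0.878 in RTF2-deficient line 1, 6.97, 11.2 and 10.9 in WT line 2, and 10.4, 11.4 and 11.5 in RTF2-deficient line 2. Hoxc9, which sets the motor neurons of the chest, measured 1.27, 1.14 and 0.844 CPM in WT line 1, 0.43, 0.392 and 0.463 in RTF2-deficient line 1, 2.5, 3.11 and 3.07 in WT line 2, and 3.85, 3.49 and 2.62 in RTF2-deficient line 2. Hoxc10, a gene of the lumbar cord, measured 0.167, 0.619 and 0.7 CPM in WT line 1, 0.0239, 0.0245 and 0 in RTF2-deficient line 1, 0.499, 2.14 and 2.15 in WT line 2, and 1.95, 2.05 and 1.04 in RTF2-deficient line 2. RTF2-deficient line 1 was again lowest with no overlap, and Hoxc10 had 2 counts there over 3 libraries. In WT, line 2 was higher for Hoxc8 (1.19 ± 0.26, SE, adjusted p 0.0103) and Hoxc9 (1.41 ± 0.21, adjusted p 0.00123). Without WT line 1 replicate 2 the adjusted p of Hoxc8 was 0.052.

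Hoxd4, a neck gene, measured 0.884, 1.06 and 0.893 CPM in WT line 1, 0.215, 0.368 and 0.634 in RTF2-deficient line 1, 0.0434, 0.242 and 0.212 in WT line 2, and 0.409, 0.154 and 0.316 in RTF2-deficient line 2. It was highest in WT line 1, which overlapped no other group, and its log2 fold change in WT was -2.50 ± 0.54 (SE, adjusted p 0.0103). Hoxd8, the leading Hoxd gene of WT line 1 per length, measured 3.44, 3.47 and 3.33 CPM in WT line 1, 1.6, 2.04 and 1.95 in RTF2-deficient line 1, 2.87, 4.79 and 4.56 in WT line 2, and 2.72, 2.87 and 2.51 in RTF2-deficient line 2. RTF2-deficient line 1 lay below all other libraries, WT line 1 lay above RTF2-deficient line 2, and WT line 2 overlapped both of these.

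Between the RTF2-deficient groups 15 Hox genes were higher in line 2 and 1 was lower, where 0.834% and 0.449% of all genes tested were called in these directions. The median absolute log2 fold change was 0.95 over the tested Hox genes and 0.13 over all genes tested. Higher in line 2 were the 9 Hoxa and Hoxd genes of numbers 9 to 13 and 6 Hoxc genes, Hoxc4 to Hoxc10. The first set had log2 fold changes between 2.50 (Hoxd9) and 3.62 (Hoxd12). The Hoxc genes ran from 1.56 (Hoxc4) over 2.35 (Hoxc6) and 2.94 (Hoxc9) to 3.35 (Hoxc8), and Hoxc10 was 103-fold higher by counts (28 to 853, exact 95% interval for counting error only). Hoxb3 was lower, at -1.04 ± 0.19 (SE, adjusted p 0.0183), and the other 7 tested Hoxb genes had log2 fold changes below 0 without a call. The Hoxb3 call was lost without any 1 of 5 libraries, RTF2-deficient line 1 replicate 1 or 2 or any replicate of RTF2-deficient line 2, with values of -1.14 to -0.91 over all libraries left out. The Hoxc4 call was lost when replicate 1 or 2 of either RTF2-deficient group was left out, with adjusted p-values up to 0.0735.

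RTF2-deficient was then compared with WT within line 1, where the Hoxc genes were lower and the rear Hoxd genes were higher. Called lower were 6 of the 9 Hoxc genes, Hoxc4 to Hoxc10, and no Hox gene outside that cluster. Called higher were Hoxd11, Hoxd12 and Hoxd13. Over all genes tested 0.659% were called lower and 0.259% higher. The 2 groups overlapped in none of the 9 called Hox genes, which adds no support, since the calls used the same libraries. Of all genes tested, 21.1% had groups that did not overlap, counting both directions. The median absolute log2 fold change was 0.73 over the tested Hox genes and 0.13 over all genes tested. The log2 fold changes (SE) were -1.31 ± 0.27 for Hoxc4, -1.89 ± 0.31 for Hoxc5, -1.69 ± 0.24 for Hoxc6, -1.97 ± 0.28 for Hoxc8 and -1.33 ± 0.23 for Hoxc9, with adjusted p-values between 0.00362 and 0.0279. Hoxc10 fell from 61 counts over the 3 WT libraries to 2, a ratio of 30.5 (8.09 to 257, exact 95% interval). Hoxd13 was 2.90 ± 0.34 higher on the log2 scale (adjusted p 0.00152), Hoxd11 2.84 ± 0.29 (adjusted p 0.000864) and Hoxd12 2.59 ± 0.46 (adjusted p 0.0116), each higher in 3 of 3 libraries. Even so, Hoxd13 in RTF2-deficient line 1 averaged 5.44 CPM, against 60.8 CPM in RTF2-deficient line 2. The Hoxb genes gave no call, with log2 fold changes between -0.30 and 0.14. Among the Hoxa genes the values ran from -0.95 (Hoxa4) to 1.57 (Hoxa13), also without a call by this rule. Hoxc4 was no longer called without any 1 of the 6 libraries of line 1 (adjusted p up to 0.101), nor Hoxc10 without any 1 of 5 of them, all but WT line 1 replicate 1 (up to 0.129). Hoxc9 lost its call without RTF2-deficient line 1 replicate 2 (0.062) and Hoxd12 without WT line 1 replicate 3 (0.0537), and without WT line 1 replicate 2 the log2 fold change of Hoxd12 was 3.54. With the replicate number as a block the adjusted p of Hoxc4 was 0.0531, past the threshold, in a range of 0.000278 to 0.101 over the alternatives.

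Within line 2, 10 of the 34 tested Hox genes had log2 fold changes below 0 in RTF2-deficient against WT MEFs and 24 above 0, and 2 were called. Hoxd13 was lower, at -1.15 ± 0.26 (SE, adjusted p 0.0162), and Hoxb4 was higher, at 1.03 ± 0.19 (adjusted p 0.00571), each in 3 of 3 libraries. These 2 calls, 1 in each direction, stand against 2.05% of all genes tested called lower and 1.73% called higher, so the share of called Hox genes was near that of all genes. The median absolute log2 fold change was 0.66 over the tested Hox genes and 0.20 over all genes tested. At an adjusted p under 0.05 without the fold threshold, 8 Hox genes were counted, 2 lower and 6 higher, against 7.03% of all genes tested counted lower and 5.42% higher. The 9 Hoxa and Hoxd genes of numbers 9 to 13 stood at 0.45 to 0.69 times their WT mean, with log2 fold changes between -1.15 (Hoxd13) and -0.54 (Hoxa9), and the genotypes overlapped in none of them. Hoxb9, Hoxc9, Hoxc10 and Hoxc13, the other 4 tested genes of these numbers, had values of 0.39, 0.20, 0.07 and 0.06. The 8 tested Hoxb genes stood at 1.31 to 2.05 times their WT mean, and the genotypes overlapped for Hoxb5 and Hoxb9. Of all genes tested, 15.5% had all RTF2-deficient libraries below those of WT and 14.0% had them above. Hoxa3, at 0.94 ± 0.19 (adjusted p 0.00863), and Hoxb3, at 0.98 ± 0.19 (adjusted p 0.00831), fell just short of the fold threshold. The count of 2 calls became 1, 7 and 5 when WT line 2 replicate 1, 2 or 3 was left out, and 1 and 4 when replicate 2 or 3 of the RTF2-deficient group was. Hoxd13 was not called without RTF2-deficient line 2 replicate 1 or 2 (adjusted p up to 0.0803), and Hoxb4 not without WT line 2 replicate 1 or RTF2-deficient line 2 replicate 1 (log2 fold changes of 0.97 and 0.98).

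Over both lines together no Hox gene passed the call in either direction, with 1.22% of all genes tested called lower and 0.505% higher. At an unadjusted p under 0.05 there were 4 of the 34 tested Hox genes in edgeR and 10 in DESeq2, which also called 0, against 28.5% and 30.5% of all genes tested. The median absolute log2 fold change was 0.31 over the tested Hox genes and 0.15 over all genes tested. Hoxd8 came nearest, at -0.73 ± 0.14 (SE, adjusted p 0.00531), lower than the WT mean of the line in all 6 RTF2-deficient libraries but short of the fold threshold.

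The test of the difference between the lines' genotype effects called 12 Hox genes, 4 with a lower and 8 with a higher effect in line 2 than in line 1, where 0.449% and 0.603% of all genes tested were called. The median size of this difference was 1.24 on the log2 scale over the tested Hox genes and 0.15 over all genes tested. Hoxd13, Hoxd12 and Hoxd11 had differences of -4.05 ± 0.43, -3.46 ± 0.53 and -3.72 ± 0.35 (SE), being higher in RTF2-deficient than in WT MEFs of line 1 and lower in those of line 2. Hoxc6, lower in RTF2-deficient MEFs of line 1 and higher in those of line 2, had a difference of 2.27 ± 0.33. These 4 genes were called without any 1 of the 12 libraries, with adjusted p-values up to 0.0052 for Hoxd11, 0.0108 for Hoxd13, 0.0373 for Hoxc6 and 0.0397 for Hoxd12, whose difference was -4.41 without WT line 1 replicate 2. The other 8 called genes were Hoxa3, Hoxa4, Hoxa5, Hoxc4, Hoxc5, Hoxc8 and Hoxc9, with differences above 0, and Hoxa10, with one below 0, and each lost its call without any 1 of 4 (Hoxc8) to 11 (Hoxa10) of the 12 libraries. The count of 12 became 4 without RTF2-deficient line 1 replicate 2, WT line 2 replicate 3 or RTF2-deficient line 2 replicate 2. It became 5 without WT line 1 replicate 1 or 2 or RTF2-deficient line 2 replicate 1, and leaving out either WT line 2 replicate 1 or RTF2-deficient line 1 replicate 3 made it 7. DESeq2 called 18.

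Other Hox genes were low or differed little. Hoxa7 lay between 2.97 and 9.19 CPM and Hoxa6 between 0.434 and 1.53 CPM over the 12 libraries, both tested and not called in any comparison. Hoxd3 reached at most 0.595 CPM and Hoxc13 at most 0.456 CPM, also without a call. Between the WT groups the adjusted p of Hoxc13 was 0.0543, and with the replicate number as a block it was 0.0474, which would be a call, in a range of 0.0256 to 0.198 over the alternatives. Hoxb1, Hoxb13, Hoxc11, Hoxc12 and Hoxd1 were not tested, with highest values of 8, 5, 9, 5 and 3 counts in any library. Over all 12 libraries Hoxd1 had 5 counts and 9 libraries with none. In the shallowest library a count of 0 allows up to 3 counts, or 0.0762 CPM. Several Hox genes share exon bases with other genes. On the opposite strand Hoxb3os covers 63.9% of the exon bases of Hoxb3 and 58.5% of those of Hoxb2, Hoxa11os 24.8% of those of Hoxa11 and Hoxaas3 23.3% of those of Hoxa7, and since the use of strand in counting is not given in the sources used here, reads cannot be told apart there. On the same strand a transcript named Gm28230 covers 68.6% of those of Hoxd3 and 45.1% of those of Hoxd4, and Gm28309 23.9% of those of Hoxd11, where strand would not tell reads apart. For Hoxd13 and Hoxd12, Hoxa9, Hoxa10 and Hoxa13 no such overlap was found.

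Genes that mark limb type differed between the lines in the same comparisons. Tbx5, the forelimb factor, measured 0.239, 0.495 and 0.82 CPM in WT line 1, 0.979, 0.564 and 0.853 in RTF2-deficient line 1, 16.6, 12.4 and 12.2 in WT line 2, and 4.16, 3.88 and 6.46 in RTF2-deficient line 2. Tbx4, the hindlimb factor, measured 0.167, 0.124 and 0.145 CPM in WT line 1, 0.215, 0.294 and 0.219 in RTF2-deficient line 1, 15.4, 15.5 and 14.3 in WT line 2, and 8.08, 7.49 and 10.8 in RTF2-deficient line 2. Pitx1, which acts ahead of Tbx4 in the hindlimb, measured 0, 0.149 and 0.145 CPM in WT line 1, 0.0478, 0.0736 and 0.0244 in RTF2-deficient line 1, 6.14, 8.03 and 6.33 in WT line 2, and 5.65, 4.72 and 4.93 in RTF2-deficient line 2. All libraries of line 2 lay above all of line 1 in these 3 genes, so RNA of both forelimb and hindlimb factors was present in line 2. In WT the log2 fold changes of line 2 against line 1 were 4.72 ± 0.39 for Tbx5, 6.67 ± 0.22 for Tbx4 and 6.09 ± 0.48 for Pitx1 (SE). Between RTF2-deficient groups they were 2.59 ± 0.36, 5.16 ± 0.20 and 6.63 ± 0.53. Within line 2 Tbx5 was lower in RTF2-deficient MEFs, at -1.50 ± 0.32 (adjusted p 0.0124), and the difference of genotype effects was called for Tbx4, at -1.50 ± 0.31, in edgeR but not in DESeq2, which called it for Tbx5. The Tbx5 call within line 2 was lost without RTF2-deficient line 2 replicate 1 or 2 (adjusted p 0.0571 and 0.0653), and that of the Tbx4 difference without any 1 of 11 of the 12 libraries, all but RTF2-deficient line 2 replicate 3 (up to 0.241). Without WT line 1 replicate 1 the log2 fold change of Pitx1 in WT was 5.499.

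Of 22 other position-linked transcription factors 19 were tested. In WT, 5 were higher in line 2, Barx1, En1, Hand2, Lmx1b and Shox2, and 2 were lower, Irx5 and Six2. Over all genes tested 3.89% were called higher and 2.87% lower in that comparison. Between the RTF2-deficient groups the same 5 factors were higher, and Foxd1 and Pax3 were lower, against 0.834% and 0.449% of all genes tested. Lmx1b, which marks the dorsal side of the limb, measured 0.0239, 0 and 0 CPM in WT line 1, 0, 0.0245 and 0 in RTF2-deficient line 1, 1.52, 1.24 and 1.56 in WT line 2, and 0.938, 0.719 and 0.814 in RTF2-deficient line 2. Hand2, which marks its posterior side, measured 0.0955, 0.124 and 0.217 CPM in WT line 1, 0.167, 0 and 0.268 in RTF2-deficient line 1, 3.6, 4.21 and 4.11 in WT line 2, and 3.27, 3.31 and 2.67 in RTF2-deficient line 2. En1, which marks its ventral ectoderm, measured 0.382, 0.471 and 0.362 CPM in WT line 1, 0.573, 0.883 and 0.756 in RTF2-deficient line 1, 1.41, 1.37 and 1.49 in WT line 2, and 1.52, 1.87 and 1.9 in RTF2-deficient line 2. The 2 lines did not overlap in these genes, and Lmx1b in WT was 178-fold higher in line 2 by counts (31.5 to 7050, exact 95% interval, against 1 count), 118-fold (20.9 to 4690) without WT line 1 replicate 3, and at least 39.2-fold, against 3 counts, without replicate 1, which holds that count. Shox2 had a log2 fold change in WT of 2.55 ± 0.36 and Barx1 of 2.40 ± 0.48 (SE). Irx5 had -1.44 ± 0.12 and Six2 -1.77 ± 0.22. Pax3, a factor of muscle and neural crest precursors, was higher in RTF2-deficient MEFs of line 1, at 2.95 ± 0.35 (adjusted p 0.0016), and its genotype effects differed by -3.67 ± 0.51. Six2 was higher in RTF2-deficient MEFs of line 2, at 1.15 ± 0.22 (adjusted p 0.00707). Foxd1 had a log2 fold change of -1.24 ± 0.27 between the RTF2-deficient groups. Of the calls between these groups, that of Foxd1 was lost without any 1 of 10 of the 12 libraries, all but WT line 2 replicates 1 and 2 (adjusted p up to 0.135), that of Barx1 without any 1 of 5, all of these groups but RTF2-deficient line 2 replicate 3 (up to 0.0944), and that of En1 without RTF2-deficient line 1 replicate 1 or RTF2-deficient line 2 replicate 2 (0.0519 and 0.0632). Without WT line 1 replicate 3 the log2 fold change of Barx1 in WT was 3.14.

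Of 17 transcripts in the clusters that are not Hox coding genes, 8 were tested. Hottip, a long non-coding RNA at the rear end of Hoxa, measured 0, 0 and 0 CPM in WT line 1, 0.119, 0.147 and 0.0244 in RTF2-deficient line 1, 1.13, 1.26 and 0.968 in WT line 2, and 1.01, 0.821 and 1.27 in RTF2-deficient line 2. Against 3 counts over the group, it was at least 46.3-fold higher in WT line 2 than in WT line 1 and at least 4-fold higher in RTF2-deficient than in WT MEFs of line 1, limits that were 30.6 and 2.65 without WT line 1 replicate 1. Evx2, which lies beyond Hoxd13, measured 0, 0.0248 and 0.0241 CPM in WT line 1, 0.215, 0.245 and 0.0488 in RTF2-deficient line 1, 3.3, 4.23 and 3.26 in WT line 2, and 1.95, 2.03 and 1.67 in RTF2-deficient line 2. It followed the order of Hoxd13, with a ratio of 10.5 (2.57 to 92.4, exact 95% interval) of RTF2-deficient to WT MEFs in line 1 and a difference of genotype effects called at -4.11 ± 0.79, a fitted value that rests on 2 counts in WT line 1. The ratio was 6.95 (1.7 to 61.1) without WT line 1 replicate 1, and the call of the difference was lost without any 1 of 11 of the 12 libraries, all but RTF2-deficient line 1 replicate 3 (adjusted p up to 0.0940). The calls of Hottip and Evx2 within line 1 were lost without any 1 of the same 11 libraries (up to 0.125 and 0.141), and with the replicate number as a block (0.102 and 0.0582). Hoxa11os, antisense to Hoxa11, measured 0.167, 0.248 and 0.386 CPM in WT line 1, 0.74, 0.932 and 0.317 in RTF2-deficient line 1, 11.6, 11.4 and 10.2 in WT line 2, and 6.09, 6.85 and 8.07 in RTF2-deficient line 2. It was called higher in line 2 in both genotypes, as Hottip and Evx2 were. Evx1, which lies beyond Hoxa13, ran the other way and measured 0.955, 0.595 and 0.386 CPM in WT line 1, 1.1, 1.05 and 0.561 in RTF2-deficient line 1, 0, 0 and 0 in WT line 2, and 0.0241, 0.128 and 0.384 in RTF2-deficient line 2. WT line 2 had no count of it, so that it was at least 28.8-fold lower there than in WT line 1 and at least 8.22-fold higher in RTF2-deficient than in WT MEFs of line 2. Without WT line 2 replicate 1 these limits were 18.9 and 5.39, and without its replicate 2 they were 19.0 and 5.43. The second was 3.32 when RTF2-deficient line 2 replicate 3 was left out. The call within line 2 was lost without any 1 of 8 of the 12 libraries, all but WT line 1 replicates 1 and 3, RTF2-deficient line 1 replicate 3 and RTF2-deficient line 2 replicate 1 (adjusted p up to 0.0816). Hoxb5os, with a log2 fold change of -1.91 ± 0.41, and Hoxaas2, with -2.20 ± 0.40, were also lower in WT line 2. Hotair, a long non-coding RNA of the Hoxc cluster, reached at most 0.0452 CPM in any library, and the 6 microRNA genes of the list at most 1 CPM. Of 17 genes that neighbour the clusters 16 were counted and 14 tested, and 0 were called in any of the 6 comparisons in edgeR or DESeq2, with 0 to 3 genes in edgeR and 0 to 4 in DESeq2 at an unadjusted p under 0.05. Over all genes tested 8.49% to 28.5% in edgeR and 9.14% to 30.5% in DESeq2 were under that p, by comparison.

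Among the 9 genes of Hox cofactors (Pbx, Meis and Pknox proteins that bind DNA with Hox proteins), Meis1 and Meis2 were called, both lower in WT line 2 than in WT line 1. Of all genes tested 2.87% were called lower in that comparison. Meis2 measured 70.03, 62 and 63.3 CPM in WT line 1, 63.4, 51.7 and 53.3 in RTF2-deficient line 1, 19.6, 28.2 and 26.9 in WT line 2, and 37.05, 33.95 and 34.97 in RTF2-deficient line 2. Meis1 measured 14.1, 14.2 and 12.5 CPM in WT line 1, 13.7, 13.7 and 12.3 in RTF2-deficient line 1, 5.43, 7.36 and 6.83 in WT line 2, and 11.1, 11.3 and 11.7 in RTF2-deficient line 2. WT line 2 was the lowest group in both genes with no overlap, and the log2 fold changes were -1.39 ± 0.13 and -1.06 ± 0.12 (SE). Without WT line 2 replicate 1 that of Meis1 was -0.95, short of the call. In the other 5 comparisons 0 cofactors were called in edgeR or DESeq2, with 1 to 4 genes in edgeR and 2 to 4 in DESeq2 at an unadjusted p under 0.05. The 24 genes of Polycomb proteins, which hold Hox genes silent, and the 12 of trithorax proteins, demethylases and CTCF, which counter that state or bound it, were tested with 0 calls in each of the 6 comparisons, in edgeR and in DESeq2. At an unadjusted p under 0.05 the comparisons gave 1 to 8 Polycomb genes in either tool, and 0 to 5 trithorax genes in either tool. Of all genes tested, 8.49% to 28.5% in edgeR and 9.14% to 30.5% in DESeq2 were under that p, by comparison. The 8 Polycomb genes fell in WT line 2 against WT line 1, where these shares were 28.1% and 29.0%. By comparison and direction, edgeR called 0.259% to 3.89% of all genes tested. For WT line 2 against WT line 1 the median absolute log2 fold change was 0.14 and 0.12. In line 1 these medians were 0.07 and 0.16 for RTF2-deficient against WT, and in line 2 they were 0.21 and 0.20. Of the axial regulators Cdx1, Cdx2, Cdx4, Gdf11, Cyp26a1 and Fgf8, which set Hox expression in the early body axis, 1, Gdf11, was tested and 0 were called in edgeR or DESeq2, with an unadjusted p under 0.05 for at most 1 of them in a comparison in either tool.

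The 9 MEF markers summed to 23010 to 30090 CPM in WT line 1, 25180 to 31840 in RTF2-deficient line 1, 19620 to 21550 in WT line 2 and 21640 to 24500 in RTF2-deficient line 2, with Fn1 the most abundant on average. Pdgfra was the lowest of them, at 3.49 to 21.7 CPM over the 12 libraries, and each of the other 8 measured at least 95.9 CPM in every library. In edgeR 0 of them were called, with 1 to 5 at an unadjusted p under 0.05. Of all genes tested, 8.49% to 28.5% were under that p in edgeR, by comparison. The 5 fell in WT line 2 against WT line 1, where the share was 28.1%. DESeq2 called Pdgfra, lower in RTF2-deficient MEFs of line 2 and higher in WT line 2 than in WT line 1. The 10 neural markers summed to medians of 551, 465, 370.1 and 560 CPM in that order of groups, most of it Nes, while Sox10 and Olig2 stayed at most at 1 CPM. Sox2 was lower in RTF2-deficient MEFs of line 2 (-1.51 ± 0.23) and higher in WT line 2 than in WT line 1 (1.98 ± 0.23), and Tubb3 (-1.74 ± 0.27) and Pax6 (-1.92 ± 0.53) were lower in WT line 2. The Pax6 call was lost without any 1 of 5 libraries, WT line 1 replicate 2 or 3, RTF2-deficient line 1 replicate 2 or WT line 2 replicate 1 or 2 (adjusted p up to 0.109), and its log2 fold change was -3.05 without WT line 2 replicate 3. The 5 endothelial markers summed to medians of 14.04, 20.2, 14.7 and 17.8 CPM, with Kdr leading, Pecam1 and Cdh5 at most at 1 CPM. In edgeR 0 were called, with at most 1 at an unadjusted p under 0.05 in a comparison, beside the same shares of all genes. DESeq2 called Tek and Emcn between the RTF2-deficient groups. The 6 blood markers, 5 of them counted, summed to medians of 1.98, 2.07, 6.52 and 3.29 CPM, with Cd68 leading and Ptprc at most at 1 CPM. Cd68 was called higher in WT line 2 than in WT line 1 (2.01 ± 0.22) and lower in RTF2-deficient MEFs of line 2 (-1.07 ± 0.21), the latter short of the call without WT line 2 replicate 1 (-0.80) or RTF2-deficient line 2 replicate 2 (-0.98). The 6 epithelial markers summed to medians of 2.25, 3.68, 7.34 and 10.6 CPM, with Krt18 leading and Epcam at most at 1 CPM. Krt18 was called higher in line 2 in both genotypes (1.94 ± 0.32 and 1.73 ± 0.31), and Krt8, with 2 counts in WT line 1, was 13.4-fold higher in WT line 2 (3.39 to 116, exact 95% interval). The Krt8 call was lost without any 1 of the 6 WT libraries (adjusted p up to 0.113), and that of Krt18 between the RTF2-deficient groups without RTF2-deficient line 2 replicate 1 or 2 (0.0637 and 0.0652). The 5 muscle markers summed to medians of 22.6, 19.1, 38.8 and 40.7 CPM, with Acta1 leading and Myog at most at 1 CPM. Myod1 was 76.8-fold lower in WT line 2 than in WT line 1 by counts (20.9 to 640, exact 95% interval, against 2 counts), but 122 of the 142 counts in WT line 1 lay in replicate 1, and without it the ratio was 16.3 (3.97 to 144). Without WT line 2 replicate 1 it was 50.3 (13.7 to 420), with an adjusted p of 0.0527. Des was called higher in RTF2-deficient line 2 than in RTF2-deficient line 1 (1.85 ± 0.36), a call lost without any 1 of 4 libraries, RTF2-deficient line 1 replicate 1 or 2 or RTF2-deficient line 2 replicate 2 or 3 (adjusted p up to 0.108). The 5 markers of kidney and gonad mesenchyme summed to medians of 50.3, 53.96, 85.8 and 53.9 CPM, with Osr1 leading and Nr5a1 at most at 1 CPM. Wt1 was at least 17.3-fold higher in WT line 2 than in WT line 1, against 3 counts over the group (11.4-fold without WT line 1 replicate 1), and Pax8 was lower (-3.27 ± 0.86). The Pax8 call was lost without WT line 1 replicate 1 (-2.10, adjusted p 0.106) or WT line 2 replicate 1 or 3 (0.0890 and 0.0949). The part of these cells or genes in the Hox values was not tested.

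Promoter sequence was looked at for the Hoxd genes that were called together in line 1, since Hoxd11, Hoxd12 and Hoxd13 lie side by side and differed in the same direction. RefSeq start sites on GRCm38.p6 were matched for 22 of the 39 Hox genes, with 24 windows of 250 bases before the start. In most windows, those of Hoxd11 and Hoxd12 included but not that of Hoxd13, the final bases also occur in a GENCODE transcript. Such windows may hold transcribed sequence as well as promoter. TATAAA, the letters of the TATA box, was searched on both strands and at any position of the window. It was found in 4 of the 24 Hox windows (16.7%) and in 12.4% of the 32851 windows of all genes. A hit is a match of letters, and whether it serves as a TATA box was not tested. TTTATNG, letters that paralog number 13 proteins bind, was found on either strand in 2 Hox windows (8.33%) and 9.81% of all windows. TGATTNAT, letters that Hox and Pbx proteins bind together, was found on either strand in 2 Hox windows (8.33%) and 2.82% of all windows. Hox windows had a median of 12 CpG and 58.6% G + C, against 6 and 52.4% over all windows. For each of these 3 genes 1 window is given 5′ to 3′ on the plus strand, with the found motifs in capitals. They are TATAAA on both strands, overlapping, in Hoxd13 (chr2:74667975-74668224), none in Hoxd12 (chr2:74674763-74675012) and TGATTNAT on the minus strand before the inner of 2 start sites of Hoxd11 (chr2:74682073-74682322). The window before the outer start site of Hoxd11 (chr2:74679308-74679557) held none of these motifs and is not shown.
Hoxd13: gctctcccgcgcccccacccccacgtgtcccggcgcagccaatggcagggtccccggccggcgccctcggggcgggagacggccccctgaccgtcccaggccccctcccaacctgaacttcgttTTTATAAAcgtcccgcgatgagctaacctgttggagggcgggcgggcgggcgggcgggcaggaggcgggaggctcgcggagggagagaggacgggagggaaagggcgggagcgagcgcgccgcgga
Hoxd12: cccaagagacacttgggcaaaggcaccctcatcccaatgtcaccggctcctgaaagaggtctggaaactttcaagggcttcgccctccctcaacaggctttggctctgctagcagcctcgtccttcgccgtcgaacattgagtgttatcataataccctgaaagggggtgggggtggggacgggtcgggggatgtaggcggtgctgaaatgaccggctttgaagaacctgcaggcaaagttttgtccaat
Hoxd11: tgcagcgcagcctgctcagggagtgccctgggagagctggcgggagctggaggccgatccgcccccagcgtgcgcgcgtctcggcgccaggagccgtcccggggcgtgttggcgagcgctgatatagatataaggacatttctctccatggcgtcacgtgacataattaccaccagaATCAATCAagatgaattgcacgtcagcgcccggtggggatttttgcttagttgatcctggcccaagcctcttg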

How the data were processed

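RNA of immortalized mouse embryonic fibroblasts of 2 lines and 2 genotypes was sequenced in 12 libraries. The authors deposited raw counts per gene, and the unit of the file is counts. HTSeq and the mm10 build appear in the submitters' processing notes, Salmon and tximport in the methods, so the counting tool is not settled. Entrez identifiers of 24045 of 24100 genes were matched to symbols. Counts were tested in R 4.3.3 with edgeR 4.0.16 (filterByExpr on the 4 groups, TMM, quasi-likelihood test, Benjamini-Hochberg adjustment) and limma 3.58.1, with terms for line and genotype over both lines and with contrasts of the 4 groups elsewhere. Calls required adjusted p-values under 0.05 and changes beyond 1 on the log2 scale, the thresholds in the legend of the study's volcano plot. Levels between genes were compared as CPM per kb of the longest coding transcript in GENCODE M21. The alternatives tried were DESeq2 1.42.0, normalization by RLE or by the upper quartile, leaving out the filter or asking for 1 CPM in at least 3 libraries, the replicate number as a block, no fold threshold, no line term, summed triplicates, and each library left out. Same-numbered libraries of WT line 1, RTF2-deficient line 1 and WT line 2 deviated together from their group means (correlations of 0.287 to 0.625 in 9 pairs), so the numbers pair the libraries within line 1 and between the WT groups, by the data and not the labels. The 9 pairs with RTF2-deficient line 2 lay between -0.587 and 0.17, so they do not in the other comparisons. Values in every library are given for Hox genes called in any comparison and for the Hox gene of highest CPM per kb in each cluster, and other Hox genes by range. From the lists of limb-type, position-linked, cluster, cofactor, Polycomb, trithorax, axial, neighbour and cell type genes, called genes may be named. Some items are withheld and not reported here. Hox genes and lists were chosen with earlier results of these data known. Intervals and floors cover counting error only. The fits were tested on simulated data. Tables and plots used Python 3.11.15, pandas 2.3.3, scipy 1.17.1 and matplotlib 3.10.9.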

Additional observations from a re-analysis of the deposited data

Results flagged for a closer look

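The genotype effect on 12 Hox genes and 3 other genes differed between the lines by the test of the difference itself, given here on the log2 scale as the effect in line 2 minus that in line 1. Hoxd13 differed by -4.05, Hoxd11 by -3.72, Hoxd12 by -3.46 and Hoxa10 by -2.19. Hoxc5 differed by 2.33, Hoxc6 by 2.27, Hoxc8 by 2.16, Hoxc4 by 2.025 and Hoxc9 by 1.53. Hoxa4 differed by 1.495, Hoxa3 by 1.27 and Hoxa5 by 1.216. Outside the Hox genes, Evx2 differed by -4.107 (a fitted value that rests on 2 counts in WT line 1), Pax3 by -3.674 and Tbx4 by -1.502. Of the 12 Hox genes, 4 were called without any 1 of the 12 libraries, namely Hoxc6, Hoxd11, Hoxd12 and Hoxd13. The calls of Evx2 and Tbx4 were each lost without any 1 of 11 of the 12 libraries. The lines come from different mothers and the genotypes from different embryos, so genotype, embryo and line cannot be told apart in these differences, and their cause was not tested.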

How the results depend on the processing

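The numbers of called Hox genes were 0 over both lines, 9 in line 1, 2 in line 2, 12 for the difference of effects, 25 between WT lines and 16 between RTF2-deficient lines. With DESeq2, normalization by RLE or by the upper quartile, without the filter, or with 1 CPM asked for in at least 3 libraries, each stayed within 1.5 times these counts, DESeq2 giving 0, 11, 2, 18, 27 and 17. Without the fold threshold 1 gene was counted over both lines and 8 in line 2. The number of Hox genes detected in line 1 was 33 in WT and 33 in RTF2-deficient MEFs at a minimum of 3 counts, against 19 and 21 at 1 CPM, and in line 2 it was 33 and 36 against 28 and 30. Leaving out each library in turn gave counts of 0 to 0, 6 to 9, 1 to 7, 4 to 10, 24 to 26 and 14 to 16 in the same order. Where counts moved, the cause was not tested.

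With the replicate number as a block the counts were 0, 8, 2, 6, 26 and 16, so the difference of effects went from 12 to 6, without Hoxa3, Hoxa4, Hoxa5, Hoxa10, Hoxc4 and Hoxc9 (adjusted p 0.0614 to 0.0843). Its 4 groups share numbers that do not pair all libraries. In the comparisons where they do, the block ended the call of Hoxc4 in line 1 and added that of Hoxc13 between the WT groups. It changed no other Hox call there. The block was fitted over all libraries, RTF2-deficient line 2 included, so it is not a paired test of those comparisons alone. Among single genes no alternative reversed a direction, 1127 values kept their side of the threshold and 108 did not. Groups of 3 technical replicates limit every p to the spread between libraries, and at this depth a count of 0 in a library allows up to 3 counts.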

Other observations

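Replicate 1 of both line 1 groups stood apart from the other libraries of its group in Pax8, which measured 16.4, 3.86 and 2.99 CPM in WT line 1 and 19.8, 4.39 and 2.63 CPM in RTF2-deficient line 1. Myod1 measured 2.91, 0.198 and 0.289 CPM in WT line 1. WT line 2 replicate 1 was low in Tubb3, at 8.25, 19.2 and 17.7 CPM over the 3 libraries. These genes were chosen after their values were seen.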
